A study of Homo sapiens with 8 samples.

Results

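The 10 genes described here encode the cytoplasmic enzymes that shorten poly(A) tails, together with the protein that coats the tail. They were chosen by function and taken from the count table by Ensembl ID: 7 subunits of the CCR4-NOT complex (CNOT1, CNOT2, CNOT3, CNOT6, CNOT6L, CNOT7 and CNOT8), the PAN2-PAN3 deadenylase (PAN2 and PAN3) and the cytoplasmic poly(A)-binding protein PABPC1. The genes were chosen with earlier results of these data known. They are 10 of 60666 gene rows in the table and 10 of the 17351 rows that passed the filter on low counts, so none was lost to it.

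MicroRNAs guide Argonaute proteins to complementary sites in mRNAs, and the TNRC6 proteins bound to Argonaute recruit both deadenylases. PAN2-PAN3 is generally placed at the early, distributive trimming of long tails and CCR4-NOT at the later shortening, after which decapping and decay follow. PABPC1 on the tail binds TNRC6 and stimulates deadenylation. The mRNAs of these factors are measured here, not the proteins or their activity.

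The study transfected biotinylated microRNA duplexes for 48 h into 786-0 cells, an established human clear cell renal carcinoma line labelled as kidney epithelial, and sequenced the RNA retrieved with them in order to find targets of miR-2355-5p and miR-1271-5p. The control group carried a control microRNA (3 libraries), and the other groups carried miR-2355 (2 libraries) or miR-1271 (3 libraries); all are 1 cell line, and no other allele or agent is named. Libraries held 4122875 to 22864693 counted reads, the fewest in control replicate 2. The 10 genes took 0.179% to 0.221% of the reads of a library. Whether replicates were separate cultures is not stated in the labels, and p-values then reflect only the spread among these libraries, which may be technical. Total recovery and RNA before the pulldown were not analysed here, so each value is a share of the RNA retrieved, and altered retrieval of an RNA cannot be told apart from an altered cellular level. The identity of the line was not checked by marker genes, since symbols could not be paired with the IDs.

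The mature sequences of both microRNAs are shown because their seeds (bases 2 to 8, in capitals) set which sites they pair with. They are from RefSeq on GRCh38.p14, written 5′ to 3′. miR-2355-5p lies on the minus strand of chr2:207110043-207110063 and miR-1271-5p on the plus strand of chr5:176367960-176367981. miR-96-5p, on the minus strand of chr7:129774739-129774761, is added because it was the only other mature microRNA of the 2370 in the table with the seed of miR-1271-5p; no other had the seed of miR-2355-5p.
hsa-miR-2355-5p: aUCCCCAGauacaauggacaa
hsa-miR-1271-5p: cUUGGCACcuagcaagcacuca
hsa-miR-96-5p: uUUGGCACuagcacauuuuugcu
The seeds of the transfected microRNAs carry the same base at 3 of 7 positions. A transcript pairs fully with the miR-2355-5p seed where it holds CTGGGGA and with the miR-1271-5p seed where it holds GTGCCAA, in DNA letters. Transcript sequences of the 10 genes were not used here, so no site was looked for in them.

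With miR-2355, 5 of the 10 genes rose against the control (CNOT1, CNOT6, CNOT6L, PAN2 and PAN3) and CNOT2 fell, at an edgeR adjusted p under 0.05. With miR-1271, 5 rose (CNOT1, CNOT6, CNOT8, PAN2 and PAN3) and 2 fell (CNOT2 and PABPC1). No change reached 2-fold: the fitted log2 fold changes ran from -0.66 to 0.86 with miR-2355 and from -0.72 to 0.78 with miR-1271. Of all tested genes, 12.3% were called higher and 17.5% lower with miR-2355, and 17.6% higher and 22.5% lower with miR-1271. The share of members called higher, 5 of 10 in each contrast, is above these. The shares called lower, 1 and 2 of 10, are near or below those of all genes. The members were chosen with earlier results of these data known, so this and the later comparisons with all genes are descriptive only. With miR-1271 the balance also moved with the scaling, as given below. Calls are more frequent among abundant genes: over the 7841 tested genes within the members' range of abundance, 19.2% were higher and 22% lower with miR-2355, and 26.1% and 27.5% with miR-1271. The contrasts share their 3 control libraries, so they are given side by side and not as independent evidence.

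The median log2 fold change of the 10 genes was 0.36 in the miR-2355 contrast and 0.29 in the miR-1271 contrast, against 0.00 and 0.01 over all tested genes. The median size of the change, without its sign, was 0.49 for the members and 0.37 for all genes with miR-2355, and 0.40 and 0.42 with miR-1271. Over genes within the members' range of abundance it was 0.33 and 0.37, below the members in both contrasts. In each contrast 7 members had a positive and 3 a negative fold change. PAN2, the farthest from 0 among the members in both contrasts, stood at percentile 94.99 of all tested genes by fold change for miR-2355 and at 91.2 for miR-1271, and CNOT2 at 15.8 and 16.2.

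**Figure D1:**
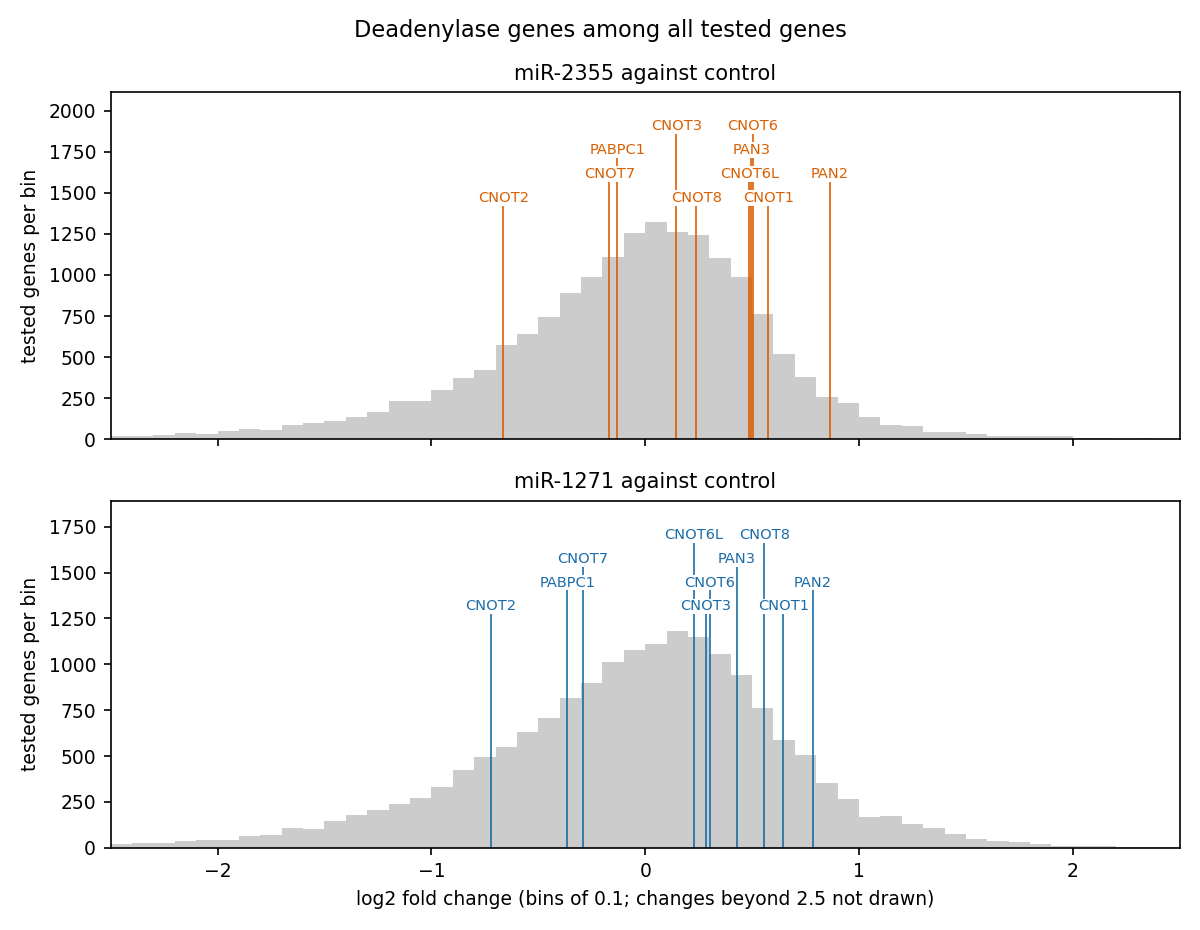
Distribution of log2 fold changes over all tested genes (grey bars, genes per bin of 0.1) for miR-2355 against control (top) and miR-1271 against control (bottom), with a labelled line at each deadenylase gene. The members lie between -0.66 and 0.86 with miR-2355 and between -0.72 and 0.78 with miR-1271, inside the range drawn. PAN2 stands at percentile 94.99 of all tested genes with miR-2355 and at 91.2 with miR-1271.

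The libraries of the microRNA groups seldom overlapped those of the control for these genes. Both miR-2355 libraries were above all 3 controls for 6 members and below them for 3, against 24.9% and 27.8% of all tested genes, and CNOT8 alone overlapped. All miR-1271 libraries were above all controls for 7 members and below them for 3, against 23.1% and 26.8%. Several of these gaps were narrow, as for CNOT3 with miR-2355, where the lower library was 1.02 times the highest control. Within groups the members had a median coefficient of variation of 7.05%, from 0.589% for PAN3 with miR-1271 to 18.5% for CNOT2 with miR-2355. The value over all tested genes was not computed.

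**Figure D2:**
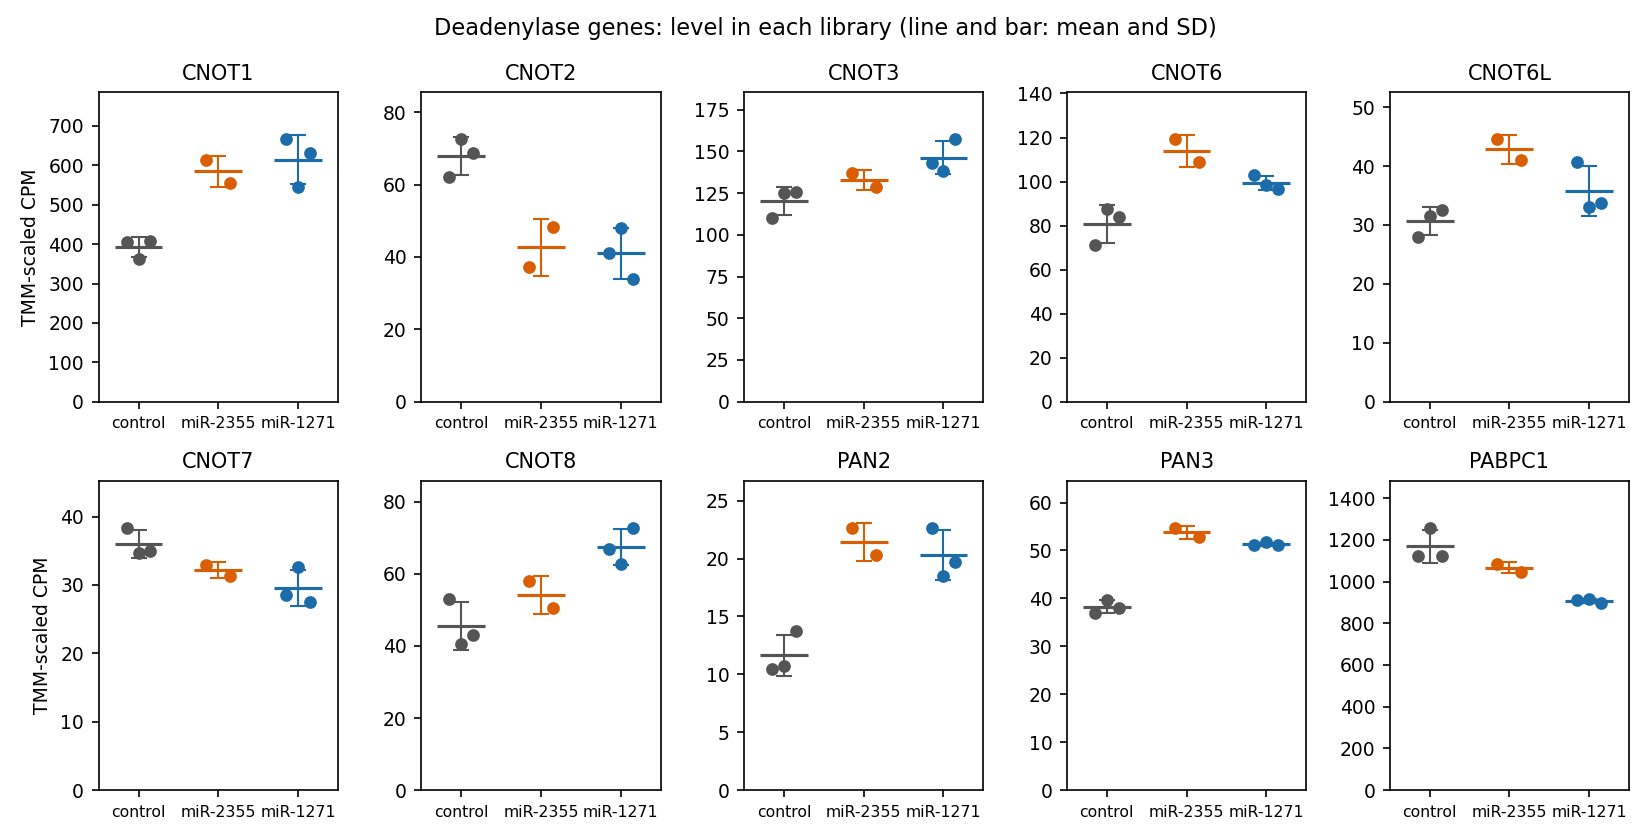
Level of each gene in every library, in TMM-scaled CPM, for control (grey), miR-2355 (orange) and miR-1271 (blue); points are libraries, the horizontal line is the mean and the bar the SD. PAN2, PAN3, CNOT1, CNOT3, CNOT6 and CNOT6L sit higher in all 5 microRNA libraries than in the controls. CNOT2, CNOT7 and PABPC1 sit lower in all 5. Several of these gaps are narrow, and CNOT8 overlaps the controls with miR-2355.

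CNOT1 (ENSG00000125107; chr16:58519951-58629826, GRCh38.p14), the scaffold on which the complex assembles and the surface that TNRC6 proteins bind, stood at 405, 363 and 408 CPM in the controls, where CPM is the usual counts-per-million unit, after TMM scaling of the library totals. It stood at 613 and 556 CPM with miR-2355 and at 666, 545 and 631 CPM with miR-1271. All 5 microRNA libraries were above every control, and the microRNA groups overlapped. CNOT1 rose 1.49-fold with miR-2355 (log2 fold change 0.58 ± 0.14, SE; edgeR adjusted p = 0.00611) and 1.57-fold with miR-1271 (0.65 ± 0.13; edgeR adjusted p = 0.000873). RefSeq places SETD6, the small nucleolar RNAs SNORA46 and SNORA50A and 2 pseudogenes within or across its span. The sources used here give neither the strand nor the overlap setting of the counting, so the part of such reads in the CNOT1 row was not tested.

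CNOT2 (ENSG00000111596; chr12:70243018-70354993) went the other way. With CNOT3 it forms the NOT module, which binds the C-terminal part of CNOT1 and helps hold the complex on its targets. Its level was 62.1, 72.5 and 68.9 CPM in the controls, 37.1 and 48.3 CPM with miR-2355, and 41.2, 48.01 and 33.9 CPM with miR-1271. Every microRNA library was below every control library, by at least 1.29-fold. CNOT2 fell by 0.66 ± 0.16 on the log2 scale with miR-2355 (SE; edgeR adjusted p = 0.00474) and by 0.72 ± 0.14 with miR-1271 (edgeR adjusted p = 0.000762), which leaves 0.631 and 0.606 of the control level. It was the only member called lower in both contrasts. The long noncoding RNA PRANCR overlaps its span in RefSeq, and the part of its reads in the CNOT2 row was not tested.

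CNOT3 (ENSG00000088038; chr19:54137762-54155681), the partner of CNOT2, passed in neither contrast. Its level was 110.3, 125 and 126 CPM in the controls, 137 and 129 CPM with miR-2355, and 143, 138 and 157 CPM with miR-1271. The microRNA libraries were above the controls, but by little. The log2 fold change was 0.15 with miR-2355 (95% interval -0.12 to 0.41; edgeR adjusted p = 0.414) and 0.28 with miR-1271 (0.05 to 0.52; edgeR adjusted p = 0.055). The latter passed with upper-quartile scaling (0.38, edgeR adjusted p = 0.0107), with RLE scaling (0.0368), with DESeq2 (DESeq2 adjusted p = 0.0274) and in a fit of those 2 groups alone (0.0391). The fitted fold changes of the NOT module partners had opposite signs in each contrast, but the CNOT3 interval with miR-2355 spans both signs. LENG1 and a long noncoding RNA overlap the span of CNOT3, as a pseudogene does that of CNOT6 and a microRNA gene that of PABPC1.

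CCR4-NOT holds a CCR4-type nuclease, either CNOT6 or CNOT6L, of the endonuclease-exonuclease-phosphatase family, which acts on tails covered by PABPC1. CNOT6 (ENSG00000113300; chr5:180494379-180578358) stood at 71.2, 87.6 and 83.8 CPM in the controls, 119 and 109 CPM with miR-2355, and 103, 98.3 and 96.7 CPM with miR-1271. The groups did not overlap, with miR-2355 highest and the controls lowest. CNOT6 rose 1.42-fold with miR-2355 (log2 fold change 0.50 ± 0.13, SE; edgeR adjusted p = 0.00636) and 1.23-fold with miR-1271 (0.30 ± 0.11; edgeR adjusted p = 0.0445). The miR-1271 call was near the threshold. It was lost, among other settings, with library totals alone (0.15, edgeR adjusted p = 0.342), without the low-count filter (0.178), and without control replicate 1 (0.144) or 3 (0.0809), miR-2355 replicate 2 (0.0579), or miR-1271 replicate 1 (0.12), 2 (0.0706) or 3 (0.0659).

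CNOT6L (ENSG00000138767; chr4:77713387-77820269) stood at 27.95, 31.5 and 32.5 CPM in the controls, 44.5 and 41.1 CPM with miR-2355, and 40.7, 32.96 and 33.8 CPM with miR-1271. It rose 1.40-fold with miR-2355 (log2 fold change 0.49 ± 0.14, SE; edgeR adjusted p = 0.0128). With miR-1271 its log2 fold change of 0.23 did not pass (95% interval -0.04 to 0.49; edgeR adjusted p = 0.165), though it did with upper-quartile scaling (0.33, edgeR adjusted p = 0.0427). In that pulldown 2 of its 3 libraries lay just above the highest control.

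The other nuclease of the complex is a CAF1-type enzyme of the DEDD family, either CNOT7 or CNOT8, which trims tails free of PABPC1 and links the CCR4-type subunit to CNOT1. CNOT7 (ENSG00000198791; chr8:17224966-17246857) stood at 38.4, 34.7 and 35.01 CPM in the controls, 32.95 and 31.4 CPM with miR-2355, and 28.6, 32.6 and 27.5 CPM with miR-1271. All microRNA libraries were below the controls, by as little as 1.05-fold with miR-2355 and 1.06-fold with miR-1271. Its log2 fold changes of -0.17 (95% interval -0.44 to 0.11; edgeR adjusted p = 0.359) and -0.29 (-0.54 to -0.04; edgeR adjusted p = 0.0613) did not pass. The second passed with library totals alone (-0.44, edgeR adjusted p = 0.00794) and without miR-1271 replicate 2 (-0.36, edgeR adjusted p = 0.0475).

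CNOT8 (ENSG00000155508; chr5:154858249-154876792) stood at 53.01, 40.4 and 43.03 CPM in the controls, 57.8 and 50.4 CPM with miR-2355, and 66.9, 62.8 and 72.7 CPM with miR-1271. The miR-1271 libraries were the highest, and control replicate 1 lay between the miR-2355 libraries. CNOT8 rose 1.47-fold with miR-1271 (log2 fold change 0.56 ± 0.13, SE; edgeR adjusted p = 0.00228). With miR-2355 its log2 fold change of 0.24 did not pass (95% interval -0.06 to 0.53; edgeR adjusted p = 0.215), but without control replicate 1 it was 0.37 and passed (edgeR adjusted p = 0.0487).

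Both genes of PAN2-PAN3 rose in both contrasts. PAN2 (ENSG00000135473; chr12:56316936-56334000), the nuclease, stood at 10.5, 10.7 and 13.7 CPM in the controls, 22.6 and 20.3 CPM with miR-2355, and 22.7, 18.5 and 19.7 CPM with miR-1271. It was the row with the fewest reads, with 47 to 294 in the controls and 187 to 423 in the other libraries. All 5 microRNA libraries were at least 1.35 times the highest control, and the microRNA groups overlapped. PAN2 rose 1.82-fold with miR-2355 (log2 fold change 0.86 ± 0.16, SE; edgeR adjusted p = 0.000848) and 1.72-fold with miR-1271 (0.78 ± 0.15; edgeR adjusted p = 0.000719).

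PAN3 (ENSG00000152520; chr13:28138193-28295335), the pseudokinase-fold adaptor that dimerises, binds PABPC1 and TNRC6 and recruits PAN2, stood at 37.04, 39.7 and 38.04 CPM in the controls. It stood at 54.7 and 52.8 CPM with miR-2355 and at 51.2, 51.7 and 51.1 CPM with miR-1271. Its microRNA groups lay apart from the controls. The close miR-1271 values rest on 495, 522 and 645 reads, and control replicate 2 on 174. Their closeness is therefore no measure of precision. PAN3 rose 1.41-fold with miR-2355 (log2 fold change 0.50 ± 0.12, SE; edgeR adjusted p = 0.00427) and 1.35-fold with miR-1271 (0.43 ± 0.11; edgeR adjusted p = 0.00442). The miR-1271 call was lost with library totals alone (0.28, edgeR adjusted p = 0.062) and with all libraries thinned to the depth of the shallowest (0.33, edgeR adjusted p = 0.0629). RefSeq places the antisense RNA PAN3-AS1, another long noncoding RNA and the pseudogenes EEF1A1P3 and RNU6-82P within or across its span. The part of such reads in the PAN3 row was not tested.

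PABPC1 (ENSG00000070756; chr8:100702916-100722088), which binds the tail and contacts PAN2-PAN3 through PAN3 and CCR4-NOT through the TOB proteins, had the most reads of the members, from 5513 to 26413. It stood at 1122, 1258 and 1125 CPM in the controls, 1085 and 1047 CPM with miR-2355, and 910.2, 915 and 898 CPM with miR-1271. The miR-1271 libraries were the lowest and the controls the highest, with no overlap. PABPC1 fell by 0.36 ± 0.13 on the log2 scale with miR-1271 (SE; edgeR adjusted p = 0.033), and its log2 fold change of -0.13 with miR-2355 did not pass (95% interval -0.44 to 0.17; edgeR adjusted p = 0.532). The miR-1271 call was lost, among other settings, with upper-quartile scaling (-0.26, edgeR adjusted p = 0.105) and without control replicate 2 (0.095) or 3 (0.0665) or miR-1271 replicate 1 (0.11), 2 (0.0739) or 3 (0.106). RefSeq names 13 pseudogenes after PABPC1, against 2 for CNOT7, 1 for CNOT6L and 0 for the other members, and reads shared with such copies could have been split or lost, so its level is uncertain.

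**Figure D3:**
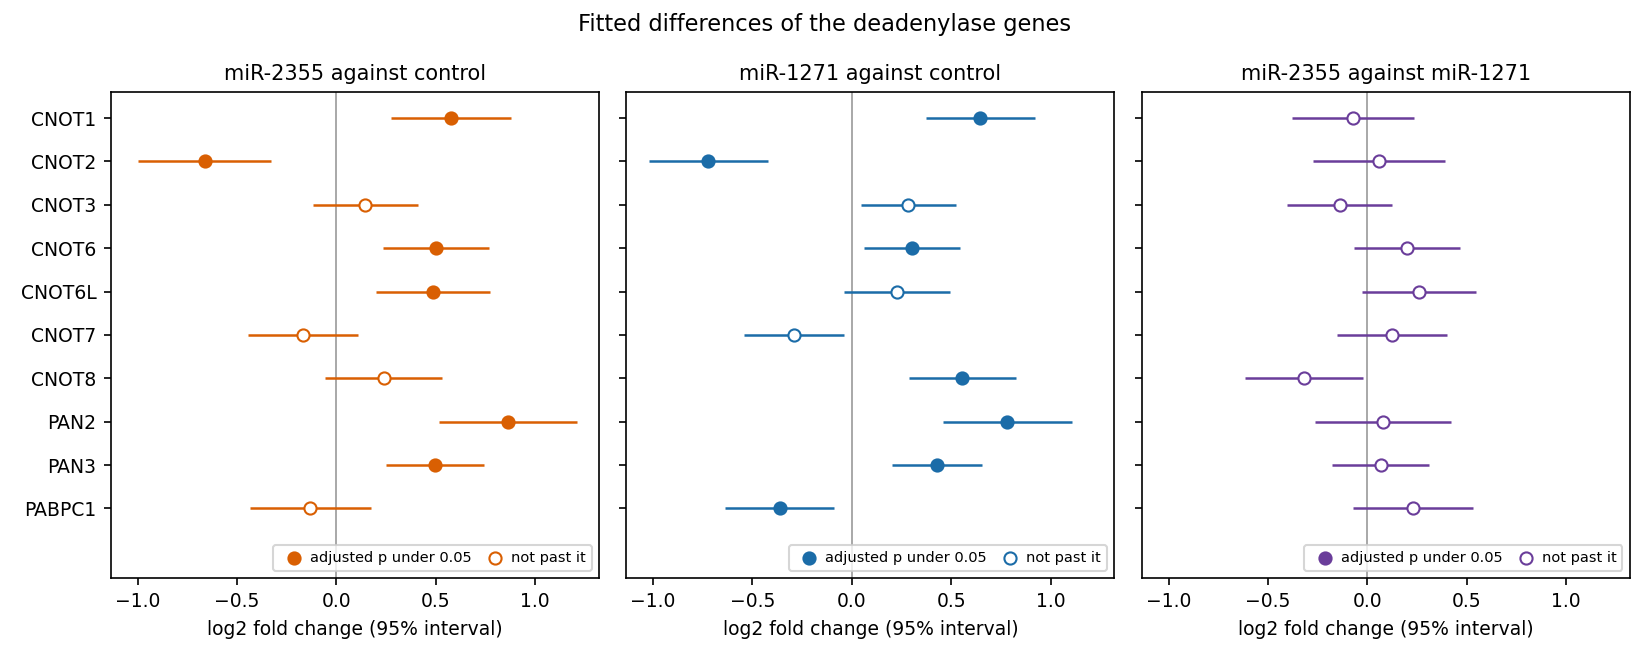
Fitted log2 fold change of each gene (points) with its 95% interval (bars) for miR-2355 against control, miR-1271 against control and miR-2355 against miR-1271; filled points have an edgeR adjusted p under 0.05. In the left and middle panels 6 and 7 points are filled, with CNOT2 to the left of 0 in both, and in the right panel none is filled.

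In the miR-2355 contrast fewer members passed without replicate 1 of that group, but not without replicate 2, though each fit left 1 library. Without replicate 1 the fold changes of the 6 members called with all libraries were of similar size, except that of CNOT2, which was smaller. Among the members not called, the log2 fold change of CNOT8 went from 0.24 to 0.16. When miR-2355 replicate 1 was left out, so that the lone remaining library had to borrow its spread from the other groups, 2 members were called, PAN2 (log2 fold change 0.80, edgeR adjusted p = 0.0185) and PAN3 (0.49, edgeR adjusted p = 0.047). CNOT1 (0.52, edgeR adjusted p = 0.0645), CNOT6 (0.46, 0.0778), CNOT6L (0.45, 0.116) and CNOT2 (-0.46, 0.139) did not pass, and all 6 had an unadjusted p under 0.05. Over all genes the calls in that fit fell likewise, from 2127 higher and 3044 lower to 760 and 1569 of 17972 tested. Without replicate 2 of that group all 6 calls were made again. The scaling moved the balance of the miR-1271 calls: 5 higher and 2 lower with TMM became 7 and 1 with upper-quartile factors and 3 and 3 with library totals alone, which put the median of all genes at -0.14. The calls over all genes shifted the same way, from 3062 higher and 3910 lower to 4003 and 3328 and to 1896 and 4887.

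Against each other, the pulldowns did not differ detectably in any member. The edgeR test called 0 of 10, where 3.5% of all tested genes were called higher and 2.65% lower in miR-2355 than in miR-1271 pulldowns, and DESeq2 also called 0. At an unadjusted p under 0.05 there was 1 member by edgeR and 2 by DESeq2. The nearest was CNOT8, lower with miR-2355 by 0.32 on the log2 scale (-0.32, 95% interval -0.61 to -0.02; edgeR adjusted p = 0.185). CNOT6L differed by 0.26 (95% interval -0.03 to 0.55; edgeR adjusted p = 0.267) and PABPC1 by 0.23 (-0.07 to 0.53; edgeR adjusted p = 0.349). For CNOT1 the interval ran from -0.38 to 0.23, for CNOT2 from -0.27 to 0.39, for PAN2 from -0.26 to 0.42 and for PAN3 from -0.18 to 0.31. Differences of up to about these sizes are therefore not shown to be absent. Libraries of the microRNA groups did not overlap for 4 members higher with miR-2355 (CNOT6, CNOT6L, PAN3 and PABPC1) and 2 lower (CNOT3 and CNOT8), against 21.1% and 20.5% of all tested genes. CNOT6L, CNOT8 and PABPC1 were each called against the control with 1 microRNA and not with the other, and the direct contrast, the test of that difference, was passed by none after adjustment.

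Reads of partner genes were also compared as a ratio within each library, which needs no scaling between libraries. CNOT7 over CNOT8, the alternative CAF1-type nucleases, gave log2 ratios of -0.47, -0.22 and -0.30 in the controls, -0.81 and -0.68 with miR-2355, and -1.23, -0.95 and -1.40 with miR-1271. The groups did not overlap, with the controls highest and miR-1271 lowest. How often the ratios of other gene pairs separate in this way was not computed. The mean difference from the control was -0.42 with miR-2355 (exact two-sided permutation p = 0.2) and -0.86 with miR-1271 (exact permutation p = 0.1), and the difference between the microRNAs was 0.44 (exact permutation p = 0.2). These are the smallest p-values that 2 against 3 and 3 against 3 libraries allow, so no ratio could pass 0.05, and each was 0.36 after Benjamini-Hochberg adjustment over the 9 ratio tests.

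The ratio CNOT6 over CNOT6L moved little: its mean log2 value ± SD was 1.39 ± 0.07 over 3 control libraries, 1.41 ± 0.01 over 2 miR-2355 libraries and 1.48 ± 0.12 over 3 miR-1271 libraries. The exact permutation p was 0.8 and 0.4 against the control and 0.6 between the microRNAs. PAN2 over PAN3 was -1.72 ± 0.22 for the control, -1.33 ± 0.07 for miR-2355 and -1.34 ± 0.15 for miR-1271, over the same libraries. Control replicate 3, at -1.47, stood near the microRNA libraries, which ran from -1.48 to -1.17. The exact permutation p was 0.2 against the control for each microRNA and 1 between them. For miR-2355, with both libraries above all controls, 0.2 is the smallest value possible. For miR-1271 the smallest possible is 0.1, and its replicate 2, at -1.48, lay below control replicate 3.

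**Figure D4:**
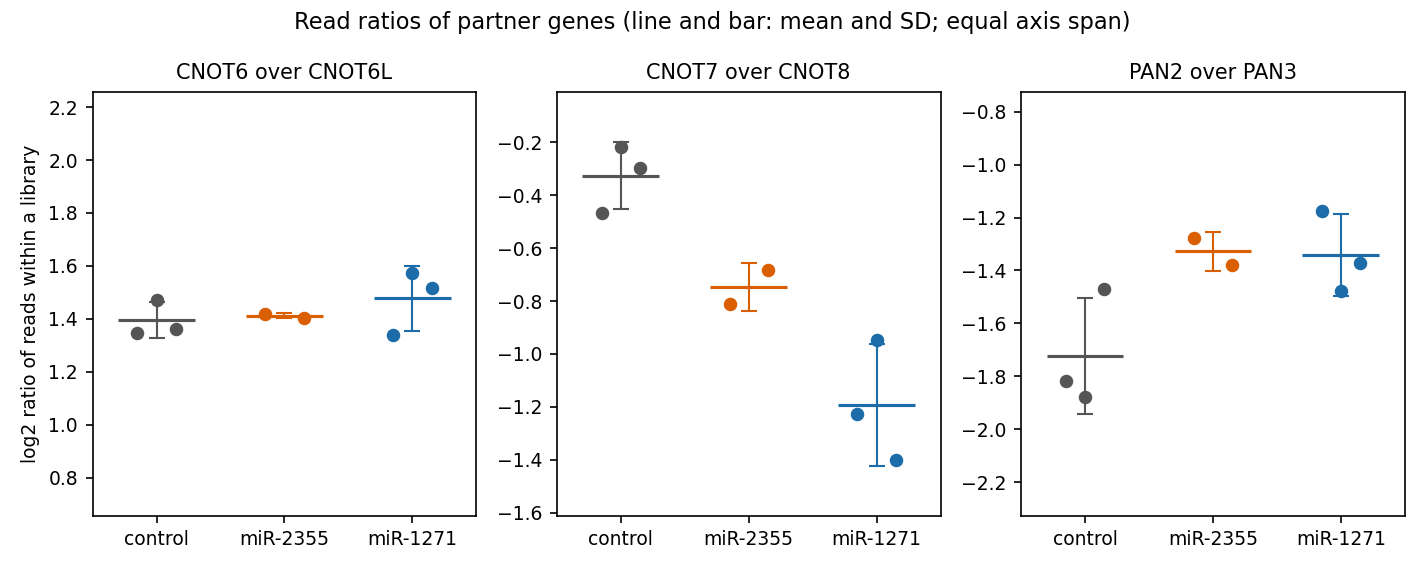
Log2 ratio of the reads of 2 partner genes within each library, for CNOT6 over CNOT6L (left), CNOT7 over CNOT8 (middle) and PAN2 over PAN3 (right); points are libraries, lines means and bars SD, and the 3 vertical axes span the same range of log2 units. The CNOT7 over CNOT8 ratio steps down from -0.33 in the controls to -0.75 with miR-2355 and -1.19 with miR-1271, while CNOT6 over CNOT6L stays between 1.34 and 1.57 in all libraries.

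Summed over the alternative subunits, CAF1-type reads (CNOT7 plus CNOT8) came to 81.5 ± 8.7 CPM (mean ± SD) over 3 control libraries, 86.3 ± 6.4 over 2 miR-2355 libraries and 97.02 ± 2.79 over 3 miR-1271 libraries. The control and miR-2355 libraries overlapped, and the miR-1271 libraries, at 95.3 to 100.2 CPM, were above both. CCR4-type reads (CNOT6 plus CNOT6L) came to 111.5 ± 10.8, 157 ± 9.7 and 135 ± 7.3 CPM in the same order, with no overlap. PAN2 plus PAN3 came to 49.9 ± 2.2, 75.2 ± 3.04 and 71.6 ± 1.96 CPM. These sums were formed after the values had been seen and are given without a test. Levels were not compared between genes, because exon lengths were not used.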

How the data were processed

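RNA retrieved with biotinylated microRNA duplexes was measured in 8 libraries of 786-0 cells. The authors deposited raw read counts per Ensembl gene ID, 1 column per library, without normalization. BWA, featureCounts and the builds hg38 and GRCh38 are listed per the submitters' processing notes. Versions, annotation release, strand setting and the rule for multi-mapping reads were not given in the sources used here. Since BWA is not a spliced aligner, reads over exon junctions may be lost, in every group.

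Counts were fitted with edgeR 4.0.16 in R 4.3.3 over all 8 libraries: filterByExpr (17351 genes, 99.78% to 99.82% of reads), TMM scaling, 1 mean per group, glmQLFTest for 3 contrasts, Benjamini-Hochberg adjustment over all tested genes and a threshold of 0.05. The SE is the log2 fold change over the square root of F, and intervals are at 95%. Fold changes and log2 ratios (0.5 reads added) were computed here from the deposited counts. Ratio differences were tested with exact two-sided permutation tests. Every member was named, and its symbol came with its ID from the choice of members. The members and lists were chosen with earlier results of these data known. Positions and sequences are RefSeq's, matched by symbol (10 of 10) on GRCh38.p14. The planned lists of other deadenylation genes and of cell markers were not tested, because 0 table IDs matched the gene table used here. Fits were tested on simulated data, with changes put into genes drawn from all tested genes. Of 1.5-fold changes, 35.4% were recovered with miR-2355, 36.5% with miR-1271 and 32.3% in the direct contrast. For 2-fold changes the shares were 76.6%, 76.9% and 58.2%. Fewer genes were changed in the simulation than were called in the data, which makes its adjusted threshold stricter. The members stood at percentiles 54.5 to 99.7 of abundance, while the changed genes came from all abundances. These shares are therefore not the recovery rates of the members, which were not estimated. A member that was not called is still not shown to be unchanged. Alternatives were other scalings, DESeq2 1.42.0, no filter, 2-group fits, a replicate block, equal depth and leaving out each library.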

Additional observations from a re-analysis of the deposited data

How the results depend on the processing

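Against the control, the sign of every member's log2 fold change was kept in both contrasts under all 16 alternatives run, while the side of the threshold was kept in 155 of 160 member results with miR-2355 and 135 of 160 with miR-1271. The number of members called with miR-2355 ranged from 2 to 7 on leaving out 1 library, with the 2 left without miR-2355 replicate 1. In the direct contrast no member passed under any alternative, and signs turned for values near 0: CNOT1 with library totals alone (0.052), PAN2 at equal depth (-0.055), and on leaving out 1 library CNOT1 (-0.14 to 0.0017) and CNOT2 (-0.14 to 0.25). The difference in the log2 ratio CNOT6 over CNOT6L between miR-2355 and control ranged from -0.0062 to 0.056 on leaving out 1 library, and that in PAN2 over PAN3 between the microRNAs from -0.055 to 0.097, and was -0.20 at equal depth. The cause was not tested.

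Deviations from the group means correlated at -0.10 to 0.02 across genes between libraries of the same replicate number. Between libraries of different number the range was -0.10 to 0.10. Such deviations cancel within a group and are mirror images in the miR-2355 group. The check therefore cannot settle whether the replicate numbers mark a pairing. With the replicate number as a block, 6 members were called with miR-2355 and 5 with miR-1271, without CNOT6 (0.30, edgeR adjusted p = 0.0751) and PABPC1 (-0.36, edgeR adjusted p = 0.0604). Over all genes that fit called 1541 higher and 2505 lower with miR-2355, and 2757 and 3650 with miR-1271, of 17351. Calls over all genes with miR-2355 numbered 2127 higher and 3044 lower with TMM and 2836 and 2615 with upper-quartile factors. In the direct contrast they numbered 608 and 459, and 1252 and 261 with library totals. The alternatives planned for the list of other deadenylation genes were not run, since no ID could be matched. At equal depth PAN2 kept both calls (log2 fold changes 0.91 and 0.96), while PAN3 lost its miR-1271 call (0.33, edgeR adjusted p = 0.0629).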
